A study of Gallus gallus with 6 samples.

Results

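The genes examined here are those of the BCL2 family, the caspases and the inhibitor of apoptosis proteins (IAPs) with their direct partners, measured by RNA sequencing in wounded chick lens explants. They were picked from the deposited table by gene symbol: names beginning with BCL2, CASP and a digit, BIRC and a digit or AIFM, together with MCL1, BAX, BAK1, BID, BIK, BMF, BBC3, PMAIP1, XIAP, APAF1, CFLAR, FADD and DIABLO. The rule found 35 of 17262 genes, and the 31 that reached 10 raw counts in at least 3 libraries are described. The rule itself used no measured value other than this count limit, but it was set with earlier results of these data known. A further 5219 genes of the table carry no symbol and could not be reached by the rule.

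The explants are a model of the lens after cataract surgery. Lenses of embryonic day 14 chicks were opened, the central anterior epithelium and the fiber cell mass were removed, and the lens capsule with the equatorial epithelium and the immune cells resident in the lens was kept. The 1 h group held 3 libraries from explants that were cut at the equatorial epithelium, flattened and cultured for 1 h after wounding, in medium 199 with 10% fetal bovine serum, and the time 0 group held 3 libraries from explants collected directly after wounding. Each library was made from 6 pooled explants. The labels name no strain, sex or genotype, and both groups carry the surgical wound, whereas the methods describe the cuts for flattening for the 1 h explants only. The 1 h since wounding, these cuts and the 1 h of culture in serum cannot be told apart, and in these bulk samples fewer cells of a type and less RNA per cell cannot be told apart either.

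BCL2 family proteins control the mitochondrial, or intrinsic, route to apoptosis. Pro-survival members such as BCL2, BCL2L1 (BCL-XL), MCL1 and BCL2L10 hold the pore-forming effectors BAK and BAX in check, and BH3-only proteins such as BIM, BIK, BMF and NOXA are the sensors that bind the pro-survival proteins and free the effectors. Once the outer mitochondrial membrane is permeable, cytochrome c assembles APAF1 and CASP9 into the apoptosome, which activates the executioner caspases, whereas death receptors reach the same executioners through FADD and CASP8. IAPs act at both levels: XIAP inhibits caspases directly and BIRC2 (cIAP1) is a ubiquitin ligase of the TNF receptor complex. In the lens these proteins have also drawn interest because maturing fiber cells lose their nuclei and organelles without dying.

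The libraries held between 13733581 and 17673955 counts. All values below are normalised read counts in CPM, the counts of a gene relative to its library's total after TMM scaling, and levels compared between genes are CPM per kilobase of gene length. A gene is called higher or lower where the quasi-likelihood test of edgeR, adjusted over 12391 genes, gave an adjusted p under 0.05. Fold changes are 1 h over time 0 and errors of log2 fold changes are standard errors (SE). Markers of the labelled tissue were present but not level between the groups. Of 9 genes found from a list for the lens epithelium, 3 were higher at 1 h (PAX6, PROX1 and SIX3). Another 2 were lower (ASL1 and CRYAB) and 4 were not called. With 1 library left out, the call of SIX3 (log2 fold change 0.30) held only without 1 h replicate 1 or time 0 replicate 1. It was also lost with upper-quartile scaling. The summed level of the 9 genes was 112560 to 116495 CPM at 1 h and 126179 to 149399 CPM at time 0. Most of this sum came from CRYAA, ASL1 and CRYAB, at means of 71641, 23572 and 14735 CPM at 1 h. At time 0 these means were 79603, 33347 and 19560 CPM. These crystallin genes are not confined to the epithelium, so the sum does not measure epithelial RNA alone. The sum hardly reflects PAX6, PROX1 and SIX3, at means of 919, 485 and 220 CPM at 1 h. Most lens fiber markers were lower. Of 13 found, 12 were lower at 1 h and 1 was not called, and their summed level was 40675 to 44003 CPM at 1 h and 54527 to 60559 CPM at time 0. Over all tested genes 19.8% were higher and 12.0% lower. Members called lower moved in the same direction as both sums, and PAX6, PROX1 and SIX3 moved the other way. The part of these changes in the results below was not tested. The 11 resident immune cell markers found summed to 3.51 to 6.27 CPM at 1 h and 1.70 to 5.30 CPM at time 0. Only 2 of them were tested, and neither was called. Within the sum, single genes moved in opposite directions. TLR4 had 15, 9 and 10 raw counts at 1 h and 1, 1 and 0 at time 0. CSF1R had 21, 18 and 11 raw counts at 1 h and 30, 41 and 12 at time 0. The 5 blood markers summed to 30.0 to 48.1 CPM at 1 h and 29.7 to 30.7 CPM at time 0. Most of this was ALAS2, at means of 28.0 CPM at 1 h and 26.5 CPM at time 0. The highest sum was that of 1 h replicate 1, where HBA1 had 309 raw counts, against 0 and 3 in replicates 2 and 3. At time 0 HBA1 had 29, 44 and 40 raw counts. The 6 mesenchyme markers found summed to 320 to 374 CPM at 1 h and 330 to 380 CPM at time 0. Most of that was PDGFRA, at a mean of 326 CPM in both groups. The 6 pigmented ciliary epithelium markers found summed to 2.28 to 5.84 CPM at 1 h and 5.46 to 6.75 CPM at time 0. No marker found in any list was at 0 in all libraries.

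Of the 31 described members, 30 passed the filter on low counts and were tested. At 1 h, 12 of the 30 were higher (40.0%), where 19.8% of all tested genes were, and 7 were lower (23.3%), where 12.0% of all tested genes were. The other 11 were not called. The median log2 fold change of the members was 0.11, against -0.01 over all genes tested, and the median size of the change regardless of direction was 0.48 against 0.25. In 13 members every 1 h library lay above every time 0 library, which held for 25.4% of all tested genes, and in 8 members every 1 h library lay below every time 0 library, which held for 21.4%. With upper-quartile scaling, which moved the median of all genes to -0.14 on the log2 scale, 8 members were higher (26.7%), where 15.3% of all genes were, and 9 were lower (30.0%), where 27.4% of all genes were, so that the share of lower members was then near that of all genes. With scaling by library totals 9 members were higher (30.0%, against 17.8% of all genes) and 9 lower (30.0%, against 16.3%). PMAIP1 reached the count limit only through the 1 h libraries, where it was high; without it 11 of 29 members were higher (37.9%).

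**Figure D1:**
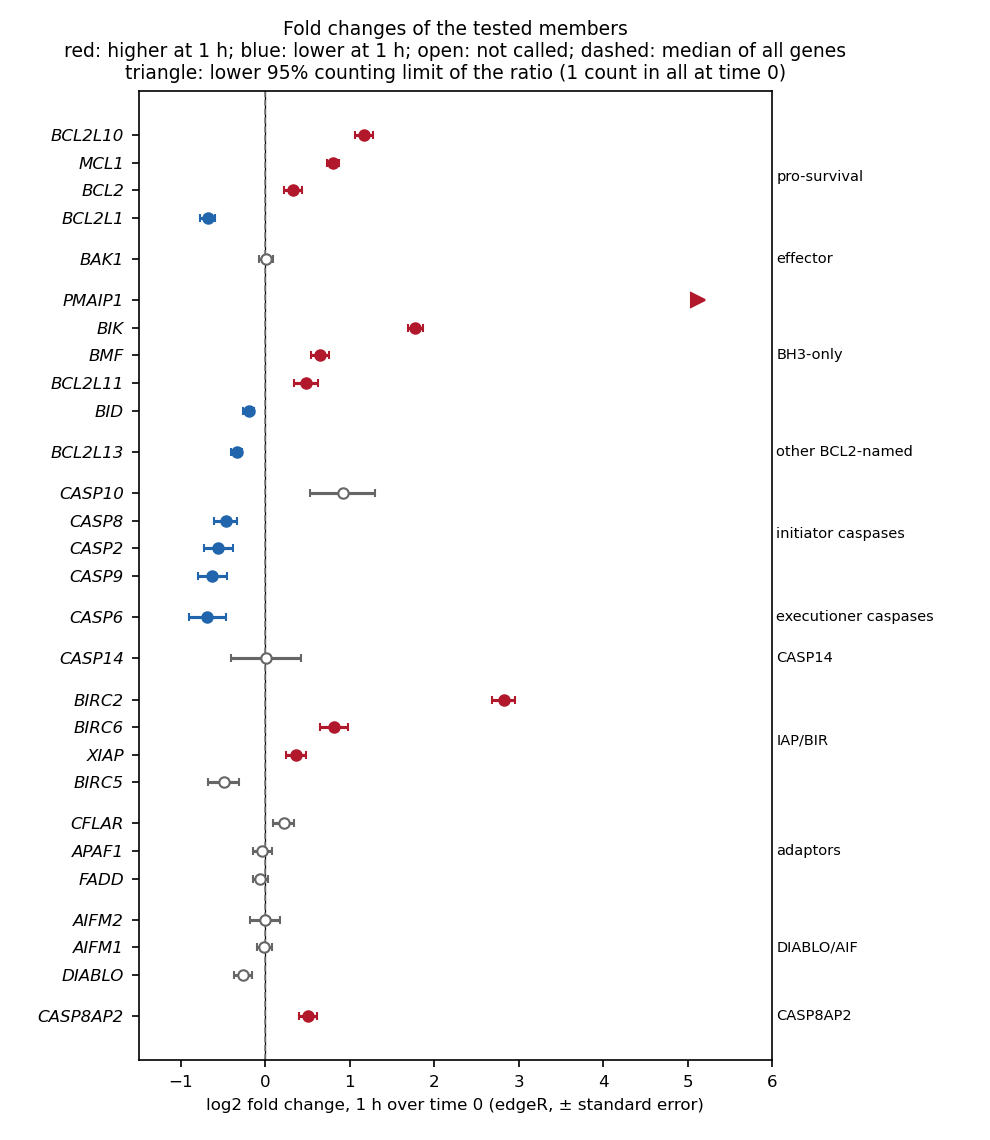
Log2 fold changes of 28 of the 30 tested members (x axis, 1 h over time 0, edgeR estimate with standard error), grouped by role. Filled points passed the test (red higher, blue lower at 1 h), open points did not, the dashed line is the median of all genes (-0.01), and the triangle marks the lower 95% counting limit for PMAIP1. Higher calls sit mainly among the pro-survival, BH3-only and IAP genes. Of the 4 tested initiator caspases 3 were called lower, where 12.0% of all tested genes were.

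Among the pro-survival genes, 3 of the 4 tested were higher at 1 h and 1 was lower, where 19.8% and 12.0% of all tested genes were. BCL2L10 (chromosome 10, 9346409 to 9349658, plus strand; all coordinates are those of the authors' table, whose genome build is not given in the sources used here) is the gene of NR13, a pro-survival protein first studied in birds. It had 666, 583 and 654 CPM in the 1 h libraries and 253, 260 and 335 CPM in the time 0 libraries. The lowest 1 h library was well above the highest time 0 library. This was a log2 fold change of 1.17 ± 0.11 (SE), or a 2.24-fold higher level at 1 h (adjusted p = 8.90e-06).

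MCL1 (chromosome 25, 3689597 to 3694822, plus strand) encodes a short-lived protein that binds NOXA and BIM. Its level was 451, 506 and 503 CPM at 1 h and 288, 275 and 275 CPM at time 0. The time 0 libraries were nearly alike and none reached the 1 h libraries. MCL1 was 1.74-fold higher at 1 h, a log2 fold change of 0.80 ± 0.07 (SE, adjusted p = 5.40e-06).

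BCL2L1 (chromosome 20, 10015064 to 10033228, minus strand), the gene of BCL-XL, moved the other way. It had 37.7, 42.4 and 42.9 CPM at 1 h and 66.7, 70.7 and 60.1 CPM at time 0. All 1 h libraries were below all time 0 libraries. At a log2 fold change of -0.68 ± 0.09 (SE, adjusted p = 9.94e-05), the 1 h level was 0.62 of the time 0 level. BCL2 itself (chromosome 2, 67837316 to 67924872) was the least changed of these genes, at 24.4 ± 1.92 CPM at 1 h and 19.5 ± 0.83 CPM at time 0 (SD, n = 3 each). Its log2 fold change was 0.33 ± 0.10 (adjusted p = 0.0292), and of the 6 fits that leave out a library the call was kept only without 1 h replicate 1, with adjusted p between 0.0238 and 0.148 over the 6. The call of BCL2 was also lost with DESeq2 (adjusted p = 0.0800). In edgeR it was lost with scaling by library totals (adjusted p = 0.0571) and upper-quartile scaling (adjusted p = 0.152). BCL2A1, a pro-survival gene of blood cells, had 2, 1 and 4 raw counts at 1 h and 3, 1 and 0 at time 0 and was under the count limit.

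Per kilobase, BCL2L10 was the most abundant of the pro-survival genes in every library, with MCL1 second. BCL2L10 made up 63.5% to 69.0% of the summed pro-survival level at 1 h and 54.1% to 62.1% at time 0. MCL1 made up 27.6% to 32.6% at 1 h and 30.1% to 36.4% at time 0. BCL2L1 made up 1.96% to 2.32% at 1 h and 5.59% to 7.56% at time 0, and BCL2 1.38% to 1.57% at 1 h and 2.22% to 2.44% at time 0. The ranges of BCL2L10, BCL2L1 and BCL2 did not overlap between the time points, and those of MCL1 did. The 2 genes with the highest levels thus rose while the third, BCL2L1, fell.

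On the pro-death side, the effector gene BAK1 (chromosome 26, 4677456 to 4689316), whose protein forms the mitochondrial pore, was close to level between the groups. It had 112, 108 and 124 CPM at 1 h and 124, 105 and 113 CPM at time 0. The libraries of the groups were interleaved, and the test gave a log2 fold change of 0.01 ± 0.08 (SE, adjusted p = 0.954). It was the fifth most abundant member per kilobase. No gene of the deposited table carries the symbol of the effector BAX or of the BH3-only gene BBC3, so neither enters the sums below. The symbols of the pro-survival gene BCL2L2 and the IAP gene BIRC3 are absent in the same way. BOK, another BCL2 family gene, lay outside the symbol rule and is not in the sums either. It averaged 1.36 ± 0.18 CPM at 1 h and 1.87 ± 0.25 CPM at time 0 (SD, n = 3 each) and was not called.

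Of the 5 BH3-only genes, 4 were called higher and 1 lower, where 19.8% and 12.0% of all tested genes were. Without PMAIP1, which passed the filter only through its 1 h counts, 3 of 4 were called higher. BIK (chromosome 1, 68501326 to 68513915, plus strand), whose protein acts at the endoplasmic reticulum in mammals, had 78.8, 80.8 and 94.1 CPM at 1 h and 25.2, 25.5 and 23.3 CPM at time 0. The time 0 libraries were nearly alike and lay far below every 1 h library. BIK was thus 3.42-fold higher, a log2 fold change of 1.78 ± 0.09 (SE), and the adjusted p of 3.17e-08 was the smallest of any member.

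PMAIP1 (chromosome Z, 9445555 to 9446532, plus strand) encodes NOXA, a p53 target in mammals that binds MCL1. It was almost undetected at time 0, with raw counts of 1, 0 and 0, and had 37, 73 and 103 raw counts at 1 h, which is 2.42, 4.66 and 6.02 CPM. Summed over the libraries of each group and divided by their scaled depth, the 213 counts at 1 h and the 1 count at time 0 give a ratio of 196, with an exact 95% binomial interval of 34.8 to 7780 that covers counting error only. The adjusted p was 1.27e-05. The level at 1 h, 5.51 ± 2.30 CPM per kilobase, stayed far below that of BIK (52.7 ± 5.18 CPM per kilobase).

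BMF (chromosome 5, 29608119 to 29626791, plus strand), a BH3-only gene whose protein binds dynein light chain on the actin cytoskeleton in mammals, had 30.5, 39.4 and 37.4 CPM at 1 h and 22.3, 23.1 and 23.3 CPM at time 0. The groups did not overlap, and BMF was higher by a log2 fold change of 0.64 ± 0.11 (SE, adjusted p = 6.77e-04). BCL2L11, the gene of BIM, which binds all the pro-survival proteins, averaged 13.7 ± 1.51 CPM at 1 h and 9.79 ± 1.07 CPM at time 0 (SD, n = 3 each). Its log2 fold change was 0.49 ± 0.14 (adjusted p = 0.0207), and the call was lost without 1 h replicate 2, 1 h replicate 3 or time 0 replicate 3, with an adjusted p of up to 0.0875.

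BID, which CASP8 cleaves to carry a death receptor signal to mitochondria, was the BH3-only gene called lower. It averaged 76.4 ± 1.31 CPM at 1 h and 87.5 ± 3.81 CPM at time 0 (SD, n = 3 each), a log2 fold change of -0.20 ± 0.07 (adjusted p = 0.0467). The call was lost when any of the 6 libraries was left out, with adjusted p between 0.0539 and 0.166. Its neighbour on chromosome 1, BCL2L13, lies 2907 bases away on the other strand. BCL2L13 (61798694 to 61836141) encodes a mitochondrial membrane protein studied in mammals as a mitophagy receptor. It had 368, 376 and 385 CPM at 1 h and 493, 452 and 484 CPM at time 0. All 1 h libraries were lower, with a log2 fold change of -0.34 ± 0.07 (SE, adjusted p = 0.00269). BCL2L13 was the most abundant member per kilobase at time 0 (269 ± 12.2) and stood below BCL2L10 at 1 h (213 ± 4.82 for BCL2L13 and 377 ± 26.6 for BCL2L10). BCL2L15 had at most 1 raw count in a 1 h library and at most 4 in a time 0 library.

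**Figure D2:**
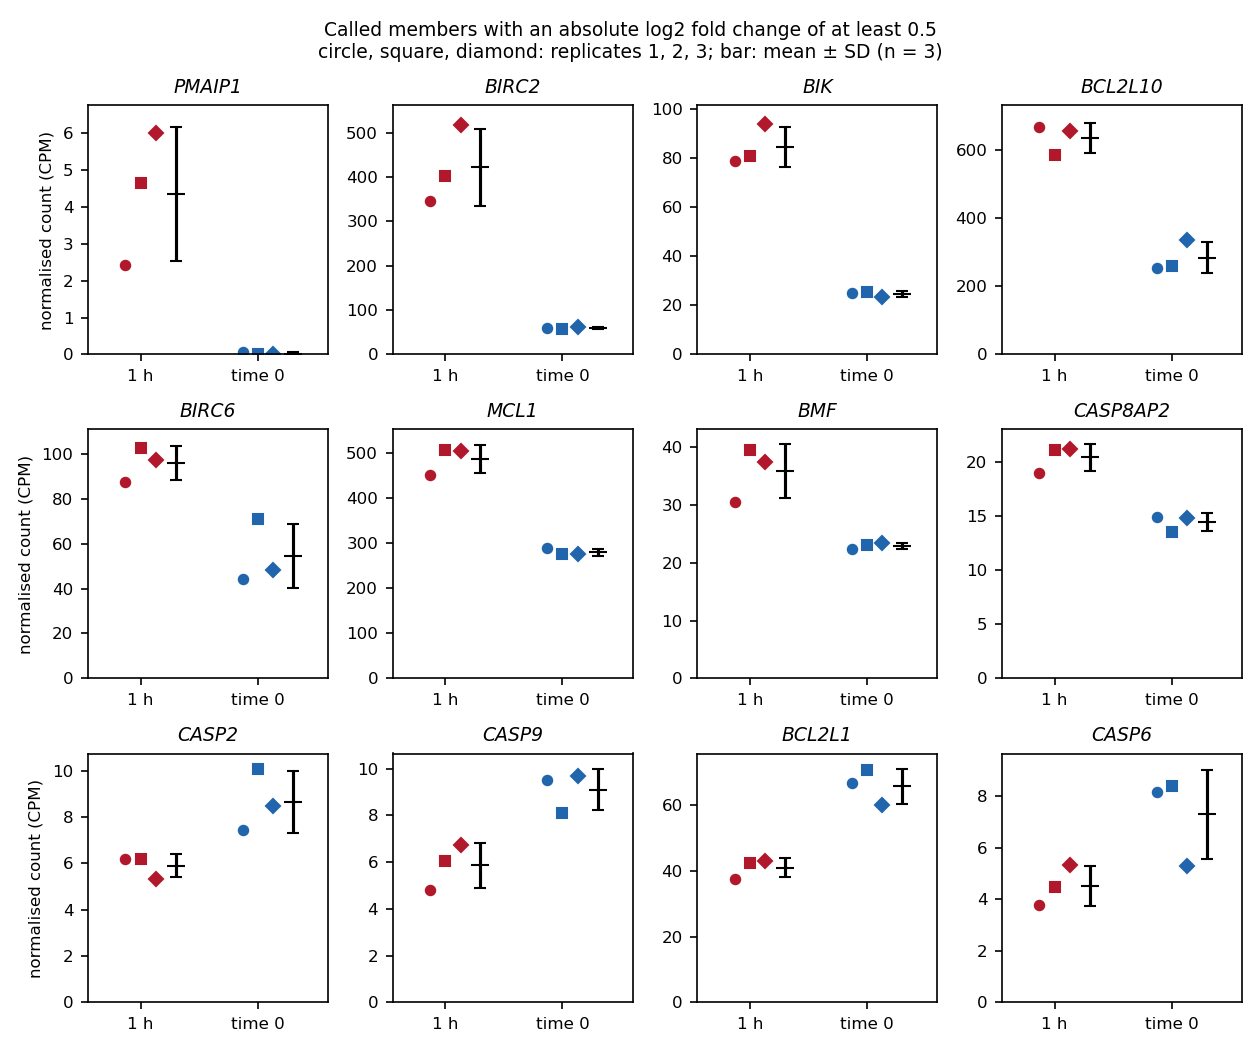
Normalised counts (CPM, linear axes from 0) of the 12 called members whose log2 fold change was at least 0.5 in size, 1 h left and time 0 right, with 1 symbol per replicate and the mean ± SD beside them. In 11 of the panels the groups do not overlap. In CASP6 the third replicates of both groups met at 5.32 CPM at 1 h and 5.31 CPM at time 0. The panels were picked by their calls in these same libraries, so the separation is partly fixed by the choice. Over all tested genes, every 1 h library lay above every time 0 library in 25.4% and below in 21.4%.

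Summed over the members of a class per kilobase, the pro-survival genes reached 573, 546 and 588 CPM per kilobase at 1 h and 278, 279 and 321 CPM per kilobase at time 0. The sum of BAK1 and the BH3-only genes was 151, 158 and 175 CPM per kilobase at 1 h and 120, 111 and 116 CPM per kilobase at time 0. Both sums were higher in every 1 h library. The ratio of the first sum to the second was 3.53 ± 0.23 at 1 h and 2.54 ± 0.23 at time 0 (SD, n = 3 each), and the 3 libraries of each group did not overlap. The sums follow their most abundant genes, BCL2L10 and MCL1 on one side and BIK, BAK1 and BID on the other. They are descriptions of RNA levels, with no test.

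**Figure D3:**
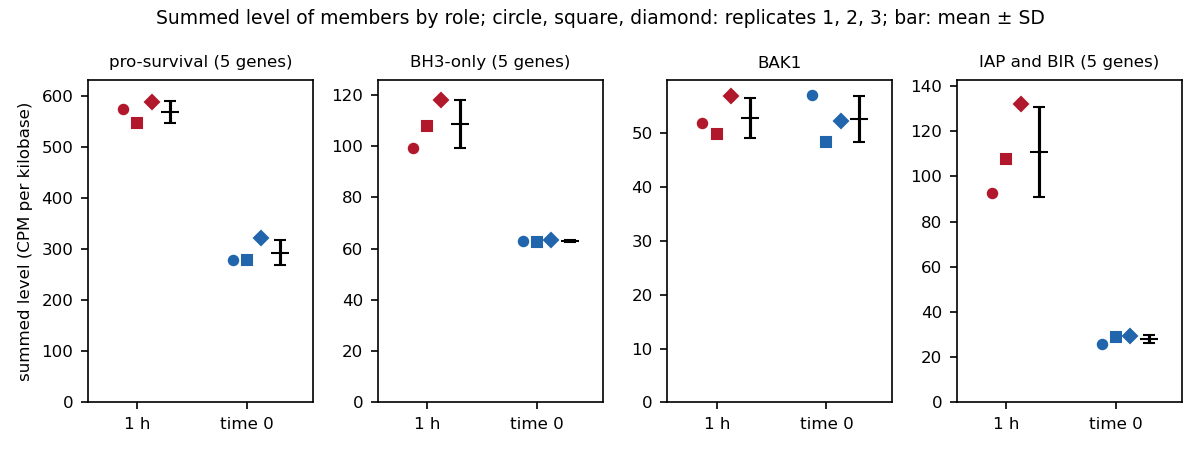
Summed level (CPM per kilobase, linear axes from 0) of members by role in each library, 1 h left and time 0 right, with the mean ± SD of 3 libraries. The pro-survival, BH3-only and IAP sums are higher in every 1 h library, and the BAK1 level overlaps between the groups.

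Among the IAPs and related proteins with a BIR domain, 3 of the 4 tested were higher at 1 h, where 19.8% of all tested genes were. BIRC2 (chromosome 1, 183926160 to 183936332, minus strand) showed, after PMAIP1, the largest fold change of any member. It had 346, 403 and 517 CPM at 1 h and 60.1, 57.6 and 61.5 CPM at time 0. The 1 h libraries differed among themselves by more than the time 0 libraries did, and the lowest of them still lay far above every time 0 library. BIRC2 was 7.07-fold higher at 1 h, with a log2 fold change of 2.82 ± 0.14 (SE, adjusted p = 2.28e-07). In the order of levels per kilobase BIRC2 had rank 4 of the 31 members at 1 h, with 94.7 ± 19.4 CPM per kilobase, and rank 12 at time 0, with 13.4 ± 0.44.

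BIRC6 (chromosome 3, 31609464 to 31785558, minus strand) encodes a very large ubiquitin-conjugating enzyme with a BIR domain. It had 87.5, 103 and 97.2 CPM at 1 h and 44.2, 70.9 and 48.2 CPM at time 0. The groups did not overlap, with the second time 0 replicate the nearest to the 1 h libraries. The log2 fold change was 0.81 ± 0.17 (SE, adjusted p = 0.00794). BIRC6 is listed with 14571 bases, and long genes as a class moved between libraries: over the 620 genes of at least 5931 bases, the median deviation from each gene's mean was between 0.10 and 0.19 on the log2 scale in the 1 h libraries and between -0.27 and -0.03 in the time 0 libraries. Once each library's trend on gene length was removed, BIRC6 had a log2 fold change of 0.48 and was still called (adjusted p = 5.95e-04).

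XIAP, the direct inhibitor of caspases, averaged 14.2 ± 0.25 CPM at 1 h and 11.0 ± 0.63 CPM at time 0 (SD, n = 3 each). The log2 fold change was 0.37 ± 0.12 (adjusted p = 0.0335), and the call was lost when any library was left out, with adjusted p between 0.0559 and 0.115. It was also lost with DESeq2, the replicate block, upper-quartile scaling, scaling by library totals, no filter on low counts and the gene length correction. BIRC5, the gene of survivin, which serves chromosome segregation in dividing cells, averaged 5.59 ± 0.79 CPM at 1 h and 7.85 ± 1.24 CPM at time 0. Every 1 h library was below every time 0 library, with a log2 fold change of -0.49 ± 0.19, but it missed the test (adjusted p = 0.0620). BIRC7 had 7, 2 and 3 raw counts at 1 h and 3, 4 and 2 at time 0 and was under the count limit. The summed IAP level was 92.6, 108 and 132 CPM per kilobase at 1 h and 26.0, 28.9 and 29.4 CPM per kilobase at time 0. Most of the 1 h sum came from BIRC2.

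The initiator caspases were lower or not called. CASP9 (chromosome 21, 4924613 to 4930908, plus strand), the caspase of the apoptosome, had 4.83, 6.07 and 6.72 CPM at 1 h and 9.51, 8.08 and 9.70 CPM at time 0. The groups did not overlap. CASP9 had a log2 fold change of -0.63 ± 0.17 (SE, adjusted p = 0.0167), a call that was lost without time 0 replicate 1 or 3 (adjusted p up to 0.0624). CASP2 (chromosome 1, 78336971 to 78362958, minus strand), the caspase of the PIDDosome in mammals, had 6.20, 6.19 and 5.32 CPM at 1 h and 7.45, 10.1 and 8.45 CPM at time 0. Again no 1 h library reached a time 0 library. CASP2 had a log2 fold change of -0.56 ± 0.17 (SE, adjusted p = 0.0279), a call that was lost without 1 h replicate 3 or time 0 replicate 2 or 3 (adjusted p up to 0.107).

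CASP8, the caspase that FADD recruits to death receptors, averaged 8.84 ± 0.53 CPM at 1 h and 12.2 ± 1.24 CPM at time 0 (SD, n = 3 each). Its log2 fold change was -0.47 ± 0.14 (adjusted p = 0.0210), and the call was lost without the third replicate of either group (adjusted p up to 0.0957). CASP8 lies on chromosome 7 in a row of members, CFLAR, CASP10, CASP18 and CASP8, all on the plus strand between 11400646 and 11455934. The row did not move as one. CASP10 had 26, 18 and 32 raw counts at 1 h and 7, 14 and 16 at time 0, higher in every 1 h library but not called (log2 fold change 0.92 ± 0.38, adjusted p = 0.0891), and CASP18, a caspase gene known from birds, had at most 2 raw counts in any library. CFLAR, which encodes the catalytically inactive relative of CASP8 that blocks its activation, had a log2 fold change of 0.22 ± 0.12 (adjusted p = 0.199).

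The executioner caspase gene CASP6 (chromosome 4, 58145236 to 58153306, plus strand), which cleaves nuclear lamins, had 3.79, 4.47 and 5.32 CPM at 1 h and 8.18, 8.41 and 5.31 CPM at time 0. The third time 0 replicate lay as low as the 1 h libraries, so the groups overlapped. CASP6 was called lower, with a log2 fold change of -0.68 ± 0.22 (SE, adjusted p = 0.0329), and the call was kept only without the third replicate of either group (adjusted p up to 0.116 in the other 4 fits).

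CASP14, which RefSeq's gene table also lists as CASP17, had 10 to 16 raw counts at 1 h and 11 or 12 at time 0 (log2 fold change 0.01 ± 0.41). CASP8AP2 matched the rule by its symbol but is no caspase; its protein, FLASH, works in histone mRNA processing. CASP8AP2 (chromosome 3, 75427685 to 75445754, minus strand) had 19.0, 21.1 and 21.3 CPM at 1 h and 15.0, 13.5 and 14.9 CPM at time 0. All 1 h libraries were higher, by a log2 fold change of 0.50 ± 0.11 (SE, adjusted p = 0.00436). It is listed with 6699 bases, and the call was lost once the trend on gene length was removed (log2 fold change 0.31, adjusted p = 0.0556).

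**Figure D4:**
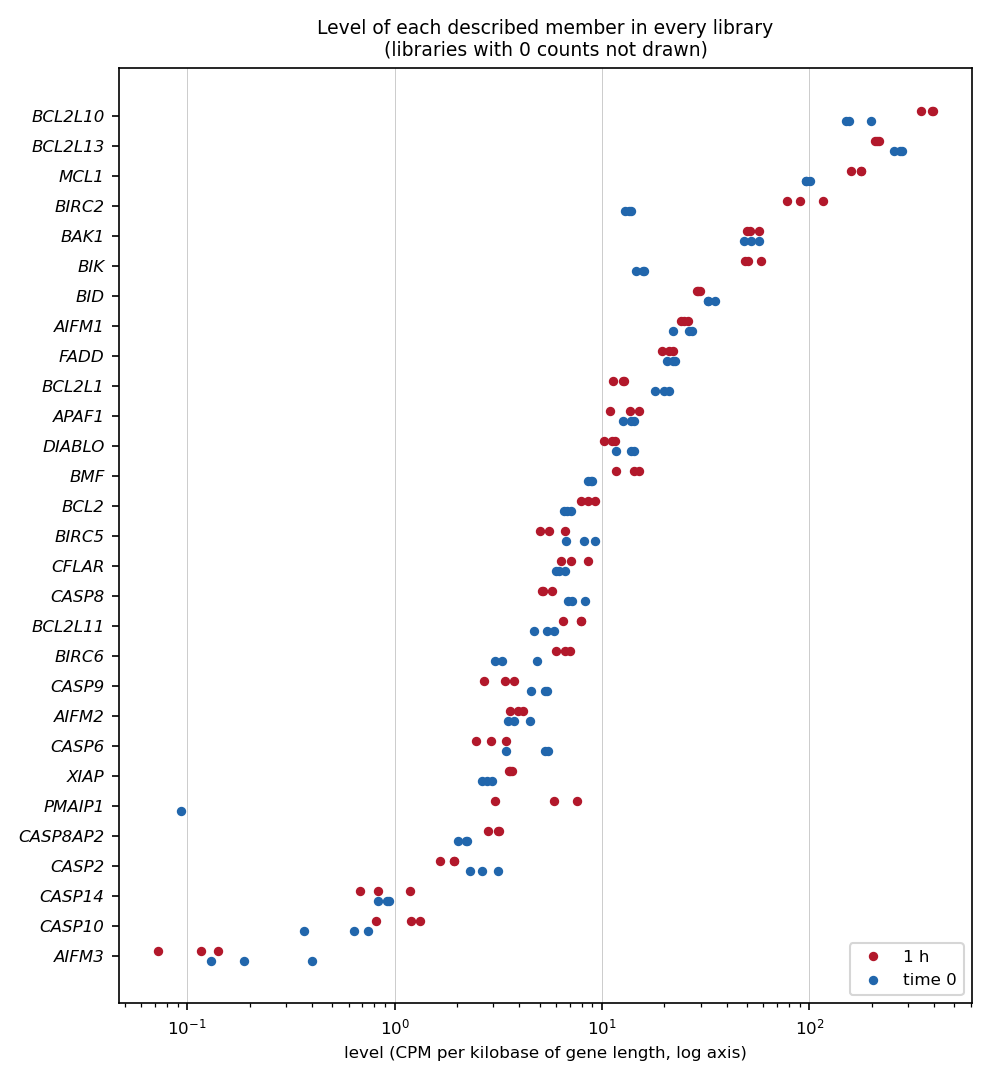
Level of 29 of the 31 described members in every library (x axis, CPM per kilobase of gene length, log axis), ordered by the mean over all libraries, with 1 h in red above time 0 in blue. BCL2L10, BCL2L13 and MCL1 lead at both time points, BIRC2, BIK and PMAIP1 show the widest gaps between the groups, and the 2 time 0 libraries with 0 counts of PMAIP1 are not drawn.

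The adaptors and the mitochondrial proteins were not called. APAF1, the scaffold of the apoptosome, had a log2 fold change of -0.04 ± 0.11 and FADD one of -0.06 ± 0.09. The flavoprotein genes AIFM1, whose product moves to the nucleus in caspase-independent death, and AIFM2, a ferroptosis suppressor in mammals, had log2 fold changes of -0.01 ± 0.09 and -0.00 ± 0.17. DIABLO, whose protein relieves caspases of IAPs, was lower in every 1 h library, at 22.1 ± 1.33 CPM at 1 h and 26.6 ± 2.80 CPM at time 0 (SD, n = 3 each), but missed the test (log2 fold change -0.27 ± 0.11, adjusted p = 0.0781). AIFM3 had 5, 10 and 9 raw counts at 1 h and 8, 28 and 13 at time 0 and did not pass the filter for the test. The second time 0 replicate had the highest AIFM3 count.

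The calls differed in how well they held with 1 library left out. Such a fit also has fewer libraries to test with, so a lost call does not by itself show dependence on that library. Over these fits the log2 fold change was 0.32 to 0.40 for XIAP and -0.23 to -0.16 for BID, and neither was called in any. Of the 19 called members, 10 kept their call with each library left out in turn: BCL2L10, MCL1, PMAIP1, BIK, BMF, BIRC2, BIRC6 and CASP8AP2 on the higher side and BCL2L1 and BCL2L13 on the lower side. These 10 also kept it under every other test, scaling and filter and with the replicate block, and all but CASP8AP2 kept it once the trend on gene length was removed. CASP8AP2 and BCL2L13 changed by less than 1.5-fold and so were lost with a fold minimum of 1.5. The other 9, BCL2, BCL2L11, XIAP, BID, CASP2, CASP6, CASP8 and CASP9 among them, lost it in at least 1 such fit. Besides the losses given above for BCL2 and XIAP, BID lost it with DESeq2, the replicate block and no robust estimation. BCL2L11 lost it with upper-quartile scaling and CASP6 with the replicate block. No caspase call therefore held with each library left out. Among the 12 members called higher, the first 1 h replicate was the lowest of the 1 h libraries in 9 and the third was the highest in 6.

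**Figure D5:**
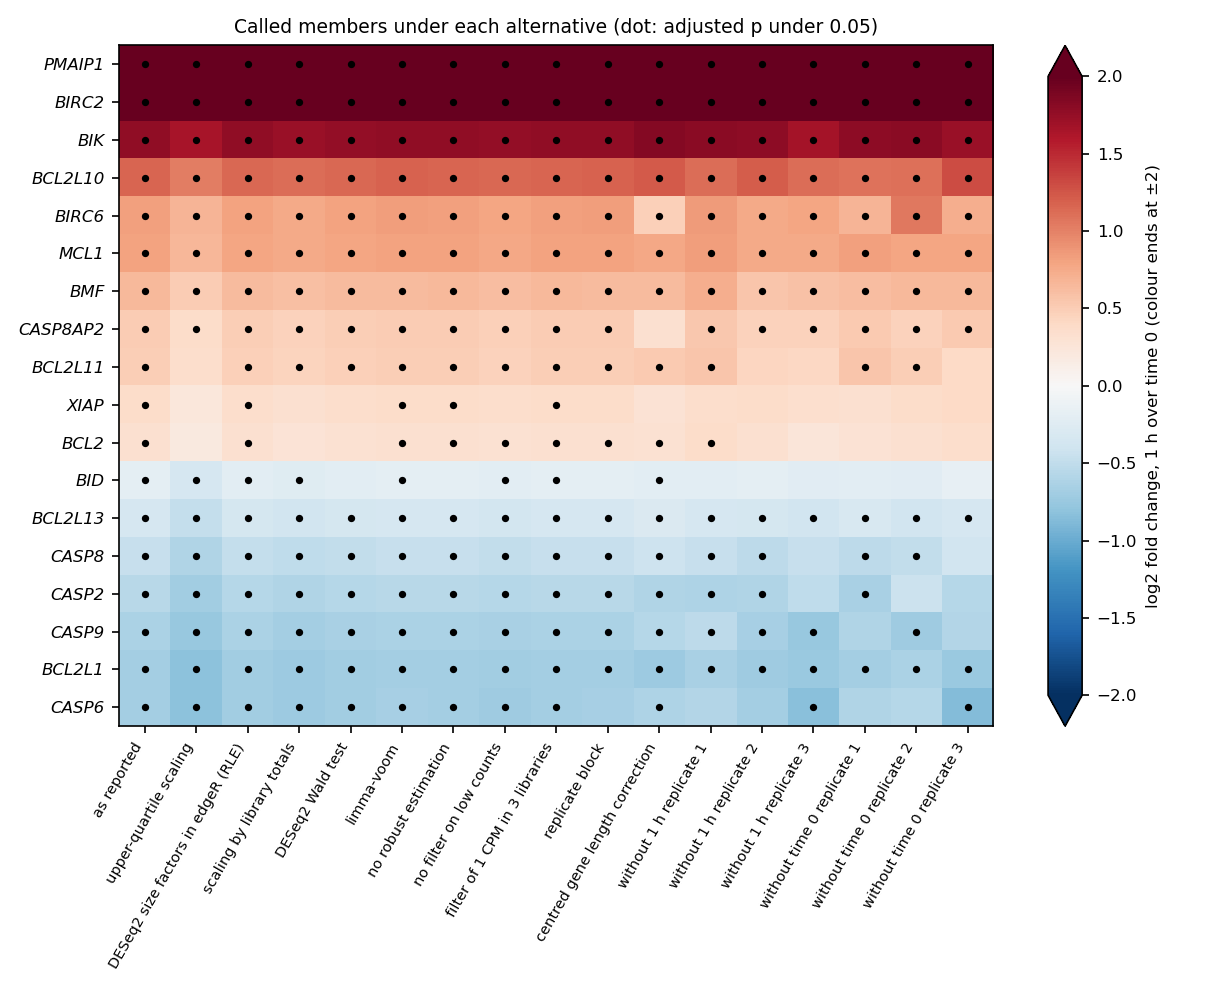
Log2 fold change (colour, 1 h over time 0, colour scale ending at ±2) of 18 of the 19 called members (rows, ordered by fold change) as reported and under each alternative fit (columns; the fold minimum of 1.5 is not drawn). A dot marks an adjusted p under 0.05; 9 members have a dot in every column, and no colour changes side between columns.

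Several members share sequence positions with other genes. By the authors' coordinates, 7 members overlap a gene on the opposite strand, with AIFM1, BCL2, BCL2L1, BCL2L13, BID and BIRC5 among them. BIRC5 lies wholly within DZANK1. Whether the reads were counted by strand is not given in the sources used here, so the reads of these pairs cannot be assigned with certainty. The gene overlapping BID had 393 to 418 raw counts at 1 h and 190 to 298 at time 0.

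Around these members, lists of other death pathway genes held 72 symbols, of which 50 were tested, with 13 higher (26.0%, against 19.8% of all tested genes) and 12 lower (24.0%, against 12.0%). Of the 11 tested death receptor genes, ligands and adaptors, 3 receptors were higher (27.3%) and 1 ligand was lower (9.09%), shares near those of all tested genes (19.8% and 12.0%). These shares cover only genes that passed the filter on low counts. Without that filter 17 genes of the lists together were higher, in place of 13, and 2440 of all genes, in place of 2450. TNFRSF10B, the gene of a TRAIL receptor, averaged 6.93 ± 0.65 CPM at 1 h and 1.46 ± 0.31 CPM at time 0 (SD, n = 3 each), a log2 fold change of 2.24 ± 0.23 (adjusted p = 1.38e-05). TNFRSF1A, the main TNF receptor, had a log2 fold change of 2.09 ± 0.16 (adjusted p = 1.78e-05) and TNFRSF21 one of 1.68 ± 0.21 (adjusted p = 6.49e-04). TNFSF10, the gene of TRAIL itself, had 160, 228 and 281 CPM at 1 h and 447, 323 and 453 CPM at time 0, a log2 fold change of -0.87 ± 0.24 (adjusted p = 0.0388). That call was lost without 1 h replicate 2, time 0 replicate 1 or time 0 replicate 3, with an adjusted p of up to 0.115. FAS, at 8, 13 and 12 raw counts at 1 h and 2, 1 and 0 at time 0, did not pass the filter.

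Among 23 other mitochondrial death factors and BCL2 partners, 4 were higher (17.4%, against 19.8% of all tested genes) and 6 lower (26.1%, against 12.0%). BAG3, a co-chaperone that binds BCL2, had a log2 fold change of 1.34 ± 0.10 (adjusted p = 1.44e-06), BNIP2 one of 0.73 ± 0.11 and the outer membrane channel gene VDAC1 one of 0.62 ± 0.18. On the lower side BNIP1 had -0.54 ± 0.14, the nuclease gene ENDOG -0.36 ± 0.10 and VDAC3 -0.36 ± 0.08. VDAC1 lost its call without 1 h replicate 1, time 0 replicate 1 or time 0 replicate 3 (adjusted p up to 0.0853), and ENDOG without time 0 replicate 2 (adjusted p = 0.0665). Cytochrome c (CYCS) was not called, at 129 ± 2.22 CPM at 1 h and 127 ± 6.65 CPM at time 0 (SD, n = 3 each).

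Of 8 genes for caspase substrates and death execution, 2 were higher (25.0%, against 19.8% of all tested genes) and 3 lower (37.5%, against 12.0%). The kinase genes ROCK1 and PAK2, whose proteins caspases cleave during blebbing, had log2 fold changes of 0.34 ± 0.07 and 0.32 ± 0.08. Both subunits of the apoptotic nuclease were lower: DFFA, the inhibitor subunit, by -0.71 ± 0.15 (adjusted p = 0.00438) and DFFB, the nuclease subunit, by -0.68 ± 0.14 (adjusted p = 0.00367). XKR8, the scramblase that caspases activate, was lower by -0.61 ± 0.17 (adjusted p = 0.0198), a call lost without 1 h replicate 2 or time 0 replicate 1 (adjusted p up to 0.0783). GSDME and PARP1 were not called, at log2 fold changes of -0.22 ± 0.10 and -0.21 ± 0.09.

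Of 8 tested partners and targets of p53, 4 were higher (50.0%, against 19.8% of all tested genes) and 2 lower (25.0%, against 12.0%). TP53BP2, the gene of ASPP2, which binds p53 and BCL2, had 157, 160 and 212 CPM at 1 h and 54.7, 46.9 and 53.1 CPM at time 0. Its log2 fold change was 1.77 ± 0.12 (adjusted p = 1.13e-06). The p53 inhibitor genes MDM2 and MDM4 had log2 fold changes of 0.93 ± 0.09 and 0.84 ± 0.10. TP53INP1, at -0.43 ± 0.13 (adjusted p = 0.0274), and SIVA1, at -0.31 ± 0.11 (adjusted p = 0.0470), were lower. TP53INP1 kept its call only without 1 h replicate 1 or 2 (adjusted p up to 0.1002 in the other fits), and SIVA1 only without time 0 replicate 3 (adjusted p up to 0.155).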

How the data were processed

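Total RNA from the 6 libraries was sequenced by the study as paired reads of 150 bases after poly-A selection. The authors deposited raw read counts per gene and library, with gene lengths in bases (an other unit) and coordinates. The submitters' processing notes name HISAT2 2.0.5, featureCounts 1.5.0-p3, StringTie 1.3.3b and DESeq2 1.20.0, without roles. Genome build, annotation release and strand setting are not given in the sources used here. The deposited columns of normalised counts, FPKM values, fold changes and p-values were not used. The labels give both time points the same culture text, and the time 0 explants are described here as in the study's methods.

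Counts as deposited were filtered with filterByExpr, scaled by TMM and tested with edgeR 4.0.16 (glmQLFit, robust, and glmQLFTest) in R 4.3.3, with Benjamini-Hochberg adjustment over 12391 genes. Standard errors were derived from the F statistic. The scripts were tested on simulated data. A count of 3 per library was the floor. Each described member is named, except 2 that are counted but not reported here, with values per library for called members whose log2 fold change was 0.5 or more in size, the 5 most abundant per kilobase and those that missed the filter; from each pathway list up to 3 called genes per direction are named, and CYCS, FAS, GSDME and PARP1 were named after their values were seen. Members and lists were chosen with earlier results of these data known. Alternatives were other scalings, filters and tests (DESeq2 1.42.0, limma 3.58.1), a fold minimum, a replicate block, leaving out each library and, chosen after seeing the data, a gene length correction. The labels call the libraries biological replicates; replicates of a group differed by more than sampling noise, and each was kept as 1 sample. RefSeq's gene table matched 34 members by symbol and 1, XIAP, by synonym.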

Additional observations from a re-analysis of the deposited data

How the results depend on the processing

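None of the 19 called members changed direction under any alternative run. With a fold minimum of 1.5 the members called were 7 higher and 3 lower, the pathway genes called lower were 4, and over all genes 1492 were higher and 365 lower, in place of 2450 and 1488. Upper-quartile scaling called 3400 genes and 21 pathway genes lower, and of all its calls 35.9% were higher, against 62.2% as reported and 52.2% with scaling by library totals. With 1 library left out, the members numbered 8 to 10 higher and 3 to 6 lower (3 without time 0 replicate 3, 4 without 1 h replicate 3), the pathway genes 11 to 14 higher and 5 to 11 lower (5 without time 0 replicate 1, 7 without 1 h replicate 2), and all genes 1965 to 2300 higher and 1035 to 1432 lower. DESeq2 called 9 members higher and 6 lower, and over all genes 2281 higher and 1372 lower. With limma-voom 12 members were higher and 7 lower, and over all genes 2441 and 1479. Same-numbered libraries of the groups did not deviate together (correlations -0.08, 0.005 and -0.04). With 3 libraries a group this cannot show whether the numbers pair them. With the replicate block 11 members were higher and 5 lower, and over all genes 2385 and 1345. BIRC5 was called lower under upper-quartile scaling, scaling by library totals and in 2 fits without a library, and DIABLO under both scalings and in 1 such fit. Depth limits the members with few counts: CASP10 and CASP14 had standard errors of 0.38 and 0.41 on the log2 scale. The cause of these differences was not tested.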

Other observations

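A row that the authors' table describes as caspase 1 carries no symbol there and so lay outside the rule. It was looked up after the other caspases had been read. It had 114, 129 and 142 raw counts at 1 h and 118, 140 and 150 at time 0, which is 7.99 ± 0.48 CPM at 1 h and 9.19 ± 0.58 CPM at time 0 (SD, n = 3 each). The log2 fold change was -0.20 ± 0.14 (edgeR adjusted p = 0.305), which missed the threshold, although every 1 h library lay below every time 0 library in CPM.

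Of the death receptor list, 3 further genes had at most 1 count in any time 0 library. TNFRSF6B had 11, 4 and 23 raw counts at 1 h and none in any time 0 library, TNFRSF25 had 20, 7 and 6 at 1 h and 0, 1 and 1 at time 0, and FASLG had 1, 7 and 5 at 1 h and none at time 0. None of these genes passed the filter for the test. FAS and these 3 genes were called higher in every alternative fit that held them. TNFSF15, also under the filter, had 4, 3 and 0 raw counts at 1 h and 1, 0 and 2 at time 0 and was not called in any.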
